A study of Mus musculus with 122 samples.

Results

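Csf2rb knockout premature alveolar macrophages of embryonic day 18 (E18) were compared with their wild-type counterparts, as 3 knockout against 4 wild-type RNA libraries of the 122 samples in the series. The libraries were chosen by their labels alone, and all 22050 genes of the count table were considered. Knockout cells came from Csf2rb-/- mice of the strain Csf2rbtm1Cgb/J and wild-type cells from Csf2rb+/+ mice, both on a C57BL/6 background. The cells were sorted by flow cytometry from whole E18 lungs digested with collagenase IV and DNase I, with 500 to 20000 cells per sample, and RNA was counted from its 3′ polyA end with MARS-seq primers. The surface gate is not given in the labels, and neither is the altered stretch of Csf2rb or whether replicates came from separate animals, so p values measure the spread between these samples, which may be technical. The allele is constitutive, so that every cell of the donor embryo carried it. For comparison served 3 further groups: E18 premature alveolar macrophages of C/EBPb tm1Pfj mice of mixed background, Cebpb-/- (n = 4) and Cebpb+/+ (n = 3), and adult Cebpb+/+ alveolar macrophages from bronchoalveolar lavage (n = 4).

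Csf2rb encodes the common beta chain of the receptors for GM-CSF, IL-3 and IL-5. The beta chain pairs with a ligand-specific alpha chain, carries the JAK2 kinase and passes the signal to the transcription factor STAT5. In the fetal lung, GM-CSF from alveolar epithelium acts on immigrating fetal monocytes around birth, and through this signal and the nuclear receptor PPARγ they acquire the surfactant-clearing, lipid-handling programme of alveolar macrophages. Mice without the beta chain are known for accumulating surfactant in the alveoli. Premature alveolar macrophages are the intermediate found in the lung in the last days before birth, so the comparison asks what these cells express when the beta chain is altered.

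The 3 knockout libraries held 1642946 to 2907179 counts and the 4 wild-type libraries 2549216 to 7949564. Levels are given in CPM, the counts of a gene relative to the library total, scaled by TMM factors, and 3 counts stood for 1.03 to 1.83 CPM in single knockout libraries, against 0.377 to 1.18 CPM in wild-type ones. After thinning every library to the same 1642946 counts, 9182 to 9418 genes were detected in knockout and 11151 to 11394 in wild-type libraries. Genes with 5 to 20 CPM in the other libraries of their group were at 0 counts in 18.7 to 20.3% of cases in knockout libraries and in at most 0.178% in wild-type ones. For genes of 20 to 50 CPM these shares were 2.14 to 2.39% in knockout and 0% in wild-type libraries. Pairs of knockout libraries correlated at r = 0.68 to 0.71 across genes and wild-type pairs at 0.92 to 0.98. The biological coefficient of variation was 78.2% within the knockout group, against 30.3% within the wild-type group. Hemoglobin genes took 0.696 to 0.955% of knockout counts and 0.233 to 0.349% of wild-type counts, and mitochondrial genes 0.510 to 0.780% of knockout and 0.0295 to 0.743% of wild-type counts. Counts of Y-linked genes were present in 2 of 3 knockout libraries and 1 of 4 wild-type libraries, so sex was mixed in both groups. The knockout libraries therefore stand apart in detected genes and in spread as well as in genotype, and the part of this in each result below was not tested.

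The label was read against alveolar macrophage genes. Their summed level was 1698 to 1992 CPM in the knockout libraries, against 9828 to 11540 CPM in the wild-type libraries, and adult macrophages held 23227 to 28022 CPM. Siglecf, a lectin of mature alveolar macrophages, had 15.9, 0 and 0 CPM in knockout libraries, against 19.1, 9.31, 13.4 and 8.63 CPM in wild-type libraries and 342 ± 51.9 CPM in adults (mean ± SD, n = 4). Both E18 groups were thus far below the adult level of this marker. Fabp1, a fatty acid binding protein high in adults (514 ± 66.8 CPM), had 2.66, 0 and 0 CPM in knockout libraries and 7.49, 0.274, 0 and 0.131 CPM in wild-type libraries, too little to be tested. The pan-leukocyte gene Ptprc and the macrophage gene Adgre1, which encodes F4/80, were present in every library. In these bulk samples, fewer cells of a type and less RNA per cell cannot be told apart.

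Csf2rb itself (ENSMUSG00000071713, chromosome 15, 78325800 to 78351001, build GRCm38) had 289, 357 and 321 CPM in the knockout libraries, against 996, 780.0, 1175 and 1109.9 CPM in the wild-type libraries. No knockout library reached the lowest wild-type library, and Csf2rb fell by 1.62 on the log2 scale (SE 0.20, edgeR adjusted p = 0.000495). The counted 3′ end may lie outside the altered stretch, so this level does not check the genotype label. The second beta chain gene, Csf2rb2, which in mice serves IL-3 alone, had 22.1, 49.2 and 104 CPM in knockout libraries and 66.2, 28.9, 63.2 and 55.5 CPM in wild-type libraries, and did not pass the test (log2 fold change 0.17, SE 0.50, adjusted p = 0.846). Its direction was negative without knockout replicate 3 or wild-type replicate 2, and reads of the near-identical Csf2rb and Csf2rb2 may be split between them.

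Both alpha chains that were measured rose. Csf2ra, the GM-CSF-binding chain, had 688, 452 and 847 CPM in knockout libraries, against 366, 329.7, 353 and 335 CPM in wild-type libraries (log2 fold change 0.98, SE 0.22, adjusted p = 0.0111). Il3ra, the IL-3-binding chain, had 74.8, 66.2 and 67.6 CPM in knockout libraries, against 8.98, 12.0, 10.1 and 12.3 CPM in wild-type libraries (2.71, SE 0.32, adjusted p = 0.000369). The knockout values lay above all wild-type values for both. Il5ra had 0 counts in all 7 libraries, as had the ligand genes Il3 and Il5.

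Receptors of other haematopoietic cytokines were measured beside them: of 19 listed, 16 were tested, and 9 rose and 1 fell, against 11.0% of all 9422 tested genes that rose and 11.4% that fell. Their median log2 fold change was 1.02, beside -0.08 over all tested genes, and the 1 fall was lost without knockout replicate 1 or any 1 wild-type library. Csf1r, the receptor that keeps most tissue macrophages alive, had 1992, 1796 and 2466 CPM in knockout libraries, against 371, 557, 442 and 409 CPM in wild-type libraries (log2 fold change 2.27, SE 0.20, edgeR adjusted p = 6.52e-05). Its ligand gene Csf1, which stands in the same list and brings it to 10 higher of 17, rose as well, with 138, 77.5 and 69.1 CPM in knockout and 8.23, 10.7, 9.82 and 13.7 CPM in wild-type libraries. Flt3, a receptor of progenitors and dendritic cells, had 143, 94.5 and 146 CPM in knockout libraries, against 0.749, 0.411, 0 and 0.785 CPM in wild-type libraries, and the groups did not overlap. Csf3r (G-CSF receptor, log2 fold change 2.18), Il2rg (common gamma chain, 2.24), Il6ra (1.61) and both chains of the type I interferon receptor, Ifnar1 (2.14) and Ifnar2 (1.28), rose too. Il4ra did not pass, at 120.0, 104 and 118 CPM in knockout libraries and 129.5, 196, 126 and 148 CPM in wild-type libraries (adjusted p = 0.316).

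**Figure D1:**
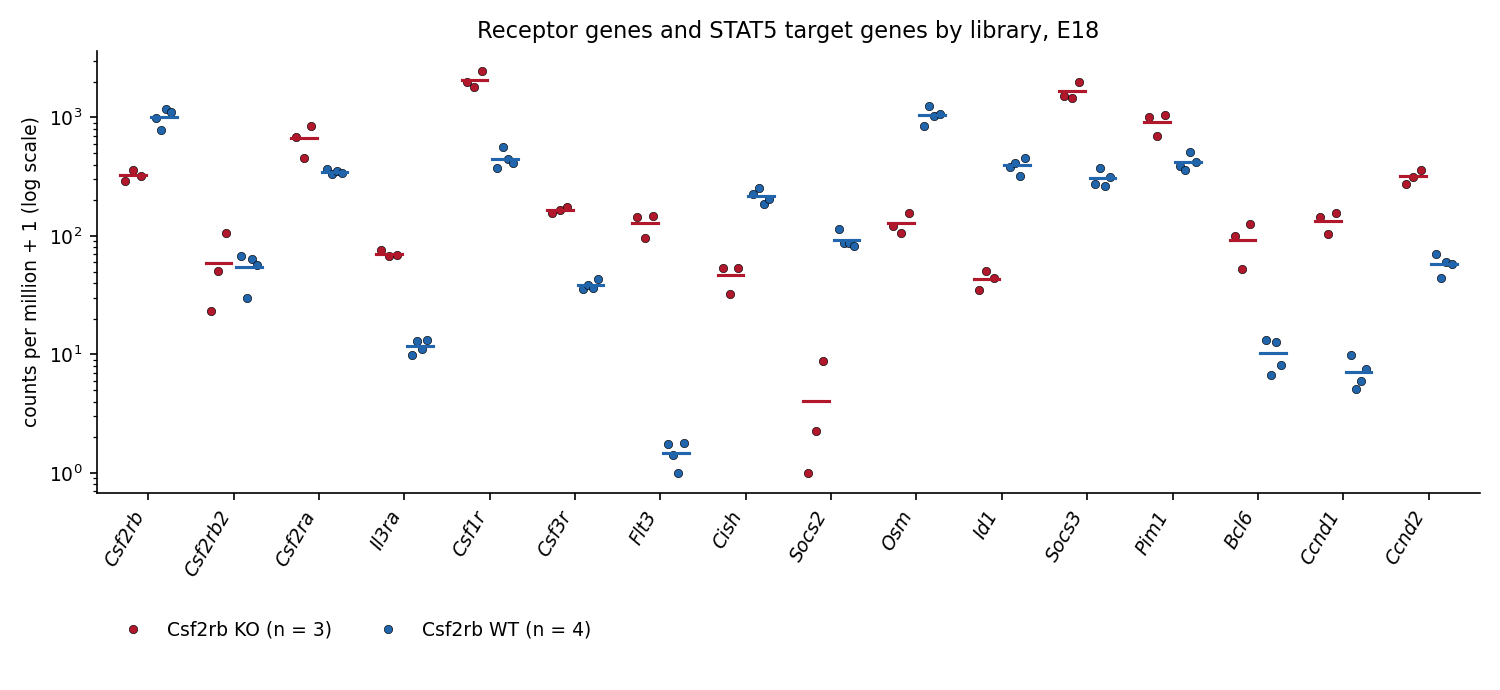
Levels of receptor and STAT5 target genes (CPM + 1, log axis), with 1 point per library, a line at the group mean, and knockout libraries (red) left of wild-type libraries (blue). Csf2rb lay at 289 to 357 CPM in knockout and 780.0 to 1175 CPM in wild-type libraries. Of the 16 genes shown only Csf2rb2 did not pass the test, and only Csf2rb2 overlapped between the groups. The choice of genes largely sets this, since 2065 of the 2118 genes that passed did not overlap, beside 37.3% of all tested genes.

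Across all genes, 2118 of 9422 tested (22.5%) passed at an adjusted p under 0.05 in edgeR's quasi-likelihood test, 1040 higher and 1078 lower in knockout macrophages. CPM did not overlap between the groups for 2065 of these genes, and for 37.3% of all tested genes. All 1040 genes that rose had counts in all 3 knockout libraries. The filter largely sets this, since it asked for a minimum level in at least 3 libraries. A gene low in wild-type cells was thus tested only if all 3 knockout libraries held it. Of the 1078 that fell, 699 had counts in all 3 knockout libraries, 223 in 1 or 2 of them and 156 in none. Leaving out wild-type replicate 1, 3 or 4 left 1411, 1392 or 1325 genes. Among genes with a mean of at least 100 CPM in 1 group, 594 were higher and 605 lower of 2329 tested. That filter keeps genes high in wild-type cells alone, whose knockout level can be low enough for single libraries to miss them.

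The largest falls were genes with 20 CPM or more in wild-type cells and, but for 1 gene, no count in any knockout library. The neuropeptide gene Gal was the exception, with 2 counts in all: its CPM were 0.885, 0 and 0 in knockout libraries, against 487, 665, 489 and 652 in wild-type libraries, a ratio of 0.0005 with an exact 95% counting interval of 6.1e-05 to 0.0018. Aldoc, a brain-type aldolase of glycolysis, had 0 counts in the knockout libraries, against 52.8, 63.5, 53.7 and 76.9 CPM in the wild-type libraries, at least 135-fold lower by the floor of 3 counts over the knockout group. The same bound was at least 130.4-fold for Fcor, a corepressor of FOXO1, 126-fold for the protease inhibitor Spink2 and 96.1-fold for the liprin Ppfia4. Arg1, the arginase of alternatively activated macrophages, had 0 counts in knockout libraries, against 41.9, 29.2, 38.3 and 32.6 CPM in wild-type libraries, at least 77.3-fold lower. Lipid synthesis was represented by the glycerol kinase Gk (at least 72.0-fold lower) and the glycerol phosphate acyltransferase Agpat9 (51.8-fold), and cell division by the replication helicase factor Cdc45 (64.8-fold) and the phosphatase Cdkn3 (59.9-fold). Matn2, a matrix protein (79.5-fold), the transcription factor Snai1 (60.4-fold), the lectin Fcnb (55.2-fold), Ccdc167 (64.0-fold) and Smim5 (51.5-fold) complete the 15. Bounds and intervals cover counting error only.

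The 15 largest rises include Flt3. Tmem176b, a membrane channel protein of dendritic cells and macrophages, had 1288, 854 and 957 CPM in knockout libraries, against 8.61, 9.31, 4.26 and 7.20 CPM in wild-type libraries (log2 fold change 7.15, SE 0.31, edgeR adjusted p = 1.89e-06), and its neighbour Tmem176a rose by 6.80. Marcks, a protein kinase C substrate at the membrane, had 1085, 1144 and 1253 CPM in knockout and 12.7, 1.92, 15.1 and 8.50 CPM in wild-type libraries. For these and all other genes among the largest rises, the groups did not overlap, as the rule that picked them required. Rsad2, which encodes the antiviral enzyme viperin, had 405, 113 and 479.9 CPM in knockout libraries and 3.74, 2.46, 0.982 and 2.22 CPM in wild-type libraries, and Ifit2 (log2 fold change 6.96), Ifi213 (6.89), Ifi206 (6.71), Gbp4 (6.84) and Ly6a (6.89), all known as interferon-induced, rose on a like scale. Ms4a4c (6.97), Ifitm6 (6.74) and the ubiquitin ligase gene Rnf150 (7.29) rose too. The neutrophil and progenitor protease gene Prtn3 had 21.2, 14.5 and 30.5 CPM in the knockout libraries and 0.374, 0, 0 and 0.131 CPM in the wild-type libraries, a ratio of 242 with an exact 95% counting interval of 65.8 to 2016. Ednrb, an endothelin receptor, had 28.8, 81.3 and 26.4 CPM in the knockout libraries and 1 count in the wild-type libraries, a ratio of 838 with an exact 95% counting interval of 149 to 33223.

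**Figure D2:**
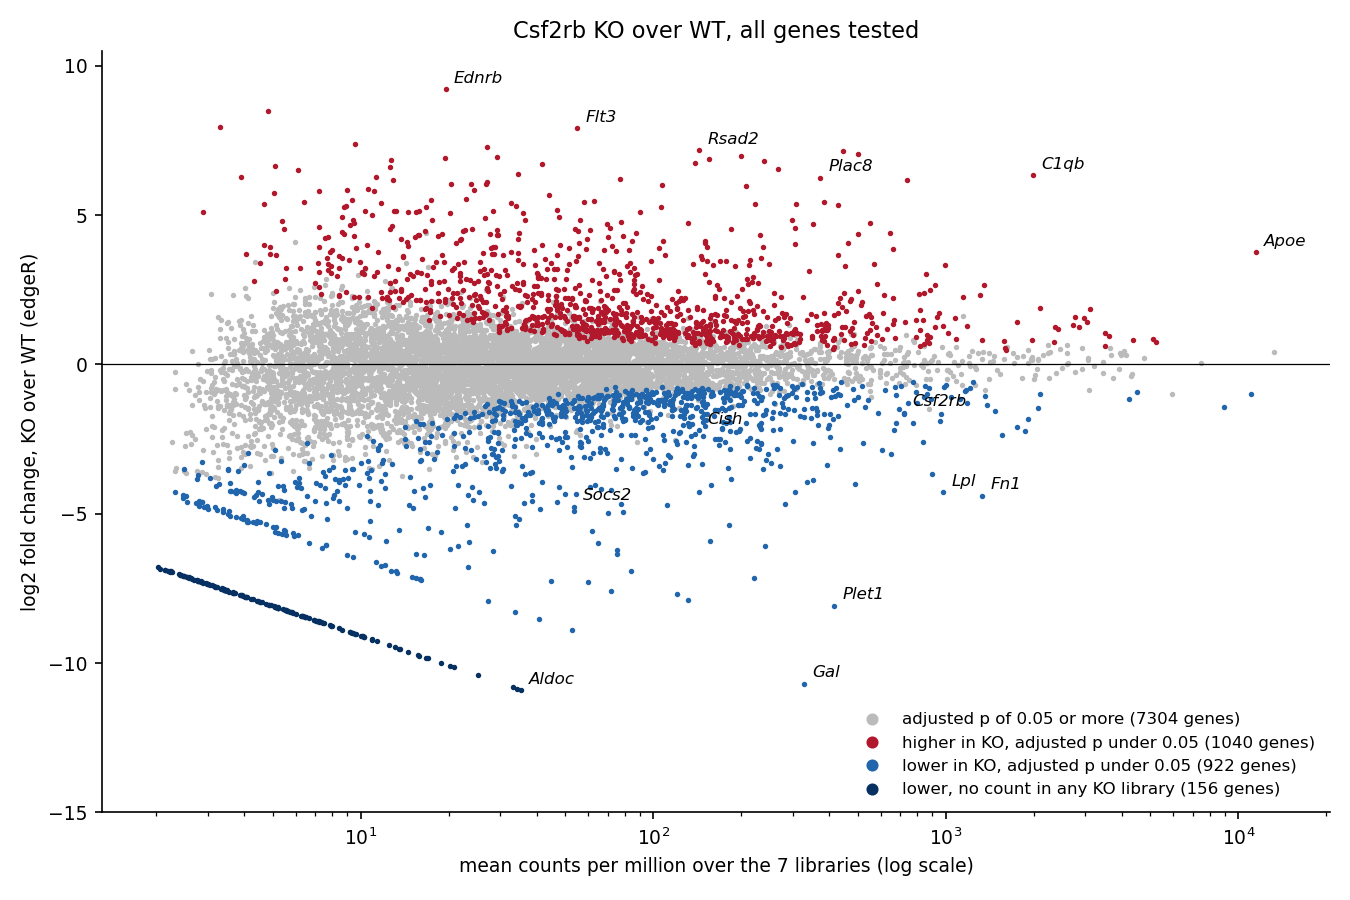
Log2 fold change of knockout over wild-type against mean level for the 9422 tested genes, with genes higher in red, genes lower in blue and lower genes without a knockout count in dark blue, all at an adjusted p under 0.05. Of the 1078 lower genes, 156 had no count in the knockout group, and their fitted values depend on the prior count.

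Of 30 tested genes of JAK-STAT, SHC and kinase signalling below the receptor, 10 rose (33.3%, beside 11.0% of all genes) and 1 fell (median 0.34), but neither STAT5 gene passed. The 10 became 3, 3 and 4 without wild-type replicates 1, 3 and 4, which is about the share of all genes, and the 1 fall was lost without wild-type replicate 3 or 4. Stat5a had 23.5, 46.0 and 16.7 CPM in knockout libraries and 21.3, 28.6, 25.9 and 20.9 CPM in wild-type libraries, and Stat5b 60.2, 62.4 and 36.4 CPM in knockout libraries and 50.2, 66.9, 51.4 and 57.4 CPM in wild-type libraries. Neither passed (adjusted p = 0.713 and 0.92), and the groups overlapped for both. Stat3, used by IL-6 family receptors, rose by 0.80 (SE 0.17, adjusted p = 0.00813).

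Among STAT5 feedback and target genes, 7 rose and 5 fell of 25 tested (median 0.38, beside -0.08 over all genes), so the list did not go one way. Both Cish and Socs2, feedback inhibitors of cytokine signalling, fell. Cish, which encodes an SH2 protein that blocks STAT5 docking, had 52.2, 31.5 and 52.7 CPM in knockout libraries, against 225, 250.1, 184 and 206 CPM in wild-type libraries (log2 fold change -2.20, SE 0.26, adjusted p = 0.000384). Socs2 had 0, 1.26 and 7.80 CPM in knockout libraries, against 113, 86.1, 86.8 and 81.0 CPM in wild-type libraries (-4.76, SE 0.81, adjusted p = 0.00275). The cytokine gene Osm fell by 3.00 (SE 0.23, adjusted p = 2.62e-05), with 121, 105 and 154 CPM in knockout and 839.5, 1238, 1034 and 1073 CPM in wild-type libraries, and Id1, an inhibitor of basic helix-loop-helix factors, by 3.19 (SE 0.24, adjusted p = 2.33e-05). No value of these 4 genes in a knockout library reached the wild-type range. Other members rose. Socs3, the feedback inhibitor of STAT3-coupled receptors, had 1510.4, 1467 and 1985 CPM in knockout libraries, against 274, 375, 261 and 312 CPM in wild-type libraries (2.48, SE 0.20, adjusted p = 3.40e-05). The kinase gene Pim1 (1.18), the transcriptional repressor gene Bcl6 (3.38) and the cyclin genes Ccnd1 (4.50) and Ccnd2 (2.51) also rose, as did Dusp6 (2.22), a phosphatase induced by ERK signalling. Myc did not pass, at 39.4, 6.30 and 24.5 CPM in knockout libraries and 52.8, 39.4, 53.4 and 59.4 CPM in wild-type libraries (adjusted p = 0.18).

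Because STAT5 is the main factor below the beta chain, the promoter windows of called STAT5 genes and of the 15 largest falls were read for the palindromic STAT motif TTCNNNGAA, the same on both strands. A window runs from 250 bases before to 50 bases after the transcript start (RefSeq, build GRCm38.p6). No window was found for Matn2, Arg1, Agpat9, Smim5, Socs2, Ccnd1, Ccnd2, Osm and Id1. Of 27 genes looked up, 18 had a window and 6 of these (33.3%) held the motif, beside 9.55% of all genes with a window and 8.30% of the 32851 windows. Cish, Bcl6 and Socs3 came from the STAT5 list, whose genes were chosen as known targets. The share of 33.3% is partly set by that choice and is no measure of enrichment. The 6 are shown because they set motif-bearing genes that fell beside motif-bearing genes that rose. Each is written 5′ to 3′ on the strand of the gene, with the motif in capitals. Motif starts, relative to the transcript start, are -124 and -83 in Aldoc, -108 in Fcor, -28 in Cdc45, -118 in Bcl6, -154 in Socs3, and 1 and 12 in Cish. Aldoc, Fcor, Cdc45 and Cish fell, and Bcl6 and Socs3 rose. A match of letters is a description and no evidence of binding.
Aldoc (chr11:78323948-78324247, plus strand): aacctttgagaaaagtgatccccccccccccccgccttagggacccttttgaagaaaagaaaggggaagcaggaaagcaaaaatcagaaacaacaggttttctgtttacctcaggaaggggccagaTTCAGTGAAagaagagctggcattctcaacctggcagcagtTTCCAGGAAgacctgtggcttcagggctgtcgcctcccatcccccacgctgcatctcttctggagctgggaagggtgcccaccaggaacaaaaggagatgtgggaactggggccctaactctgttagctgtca
Fcor (chr8:3672342-3672641, minus strand): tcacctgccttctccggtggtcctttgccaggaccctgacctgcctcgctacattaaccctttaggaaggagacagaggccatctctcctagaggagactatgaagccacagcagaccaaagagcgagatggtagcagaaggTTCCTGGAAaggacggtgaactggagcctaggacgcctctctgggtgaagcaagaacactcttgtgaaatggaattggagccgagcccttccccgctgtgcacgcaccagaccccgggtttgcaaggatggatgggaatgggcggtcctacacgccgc
Cdc45 (chr16:18811923-18812222, minus strand): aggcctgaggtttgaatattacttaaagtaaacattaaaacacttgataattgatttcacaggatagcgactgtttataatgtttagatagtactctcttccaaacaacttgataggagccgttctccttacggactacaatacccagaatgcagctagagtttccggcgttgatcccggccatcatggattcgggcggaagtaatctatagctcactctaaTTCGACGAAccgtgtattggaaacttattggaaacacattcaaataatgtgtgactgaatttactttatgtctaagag
Bcl6 (chr16:23988803-23989102, minus strand): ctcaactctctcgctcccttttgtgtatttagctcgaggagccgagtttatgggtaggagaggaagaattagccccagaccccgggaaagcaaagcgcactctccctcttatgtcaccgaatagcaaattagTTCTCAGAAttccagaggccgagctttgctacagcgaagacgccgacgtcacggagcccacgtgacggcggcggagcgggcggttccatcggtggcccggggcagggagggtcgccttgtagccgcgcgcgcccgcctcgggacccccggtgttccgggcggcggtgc
Socs3 (chr11:117969317-117969616, minus strand): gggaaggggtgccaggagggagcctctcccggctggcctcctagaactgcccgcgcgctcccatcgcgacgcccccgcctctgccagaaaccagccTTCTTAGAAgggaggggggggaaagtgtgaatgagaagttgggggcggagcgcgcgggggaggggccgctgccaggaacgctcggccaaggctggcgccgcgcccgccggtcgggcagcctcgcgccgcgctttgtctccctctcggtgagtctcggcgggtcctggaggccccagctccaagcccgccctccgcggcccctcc
Cish (chr9:107296409-107296708, plus strand): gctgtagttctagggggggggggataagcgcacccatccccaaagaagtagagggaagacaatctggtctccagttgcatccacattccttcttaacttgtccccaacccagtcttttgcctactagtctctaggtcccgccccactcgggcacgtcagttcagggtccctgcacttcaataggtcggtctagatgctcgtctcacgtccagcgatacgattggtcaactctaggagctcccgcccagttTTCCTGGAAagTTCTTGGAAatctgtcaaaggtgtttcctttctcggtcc

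Alveolar macrophage identity genes were low in the knockout: of 40 listed, 34 were tested, 20 fell and none rose, with a median log2 fold change of -2.63 beside -0.08 over all genes. The nuclear receptor gene Pparg had 67.3, 81.9 and 27.1 CPM in knockout libraries, against 268, 567, 238 and 247 CPM in wild-type libraries (log2 fold change -2.46, SE 0.45, edgeR adjusted p = 0.00434). Wild-type replicate 2 was well above its fellows, and the groups did not overlap. Gene counts do not tell the isoforms of Pparg apart. Bhlhe40, a transcription factor of alveolar macrophage self-renewal, had 39.0, 13.9 and 19.3 CPM in knockout libraries, against 132, 117, 139 and 127 CPM in wild-type libraries (-2.37, SE 0.37, adjusted p = 0.00172). Its partner Bhlhe41 was too low to be tested, at 0, 3.15 and 0.371 CPM in knockout and 3.37, 4.11, 2.95 and 3.92 CPM in wild-type libraries.

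Several identity genes were close to absent from the knockout libraries. Plet1, a surface protein of alveolar macrophages, had 2.21, 6.30 and 0.371 CPM in knockout libraries, against 736, 719, 713 and 736 CPM in wild-type libraries (log2 fold change -8.07, SE 0.55, adjusted p = 1.50e-05). Fabp4, a fatty acid binding protein and PPARγ target, had 0.885, 2.52 and 0 CPM in knockout libraries, against 175, 423, 172 and 70.8 CPM in wild-type libraries (-7.70, SE 0.93, adjusted p = 0.000427). Car4, a membrane carbonic anhydrase, had 4.43, 0 and 0 CPM in knockout and 144, 204, 119 and 55.6 CPM in wild-type libraries. Under limma-voom with quality weights per library or per group, the calls of Fabp4 (adjusted p = 0.186 and 0.145) and Car4 (0.112 and 0.0666) were lost. The lipid droplet protein gene Cidec was likewise close to absent, at 2.21, 0 and 0.371 CPM in knockout and 40.8, 37.4, 40.6 and 40.3 CPM in wild-type libraries. The oxidised lipoprotein receptor gene Olr1 (-5.92), the membrane protein gene Perp (-5.38), the ribonuclease gene Ear2 (-4.67), the chitinase-like gene Chil3 (-4.34), the tetraspanin gene Cd9 (-3.67), the fatty acid binding protein gene Fabp5 (-2.83) and the chemokine gene Ccl6 (-1.83) fell. The scavenger receptor gene Marco had 10.6, 27.1 and 0 CPM in knockout libraries, against 165, 170.3, 163 and 111 CPM in wild-type libraries (-3.63, SE 0.88, adjusted p = 0.0155). Ear1 did not pass (-2.61, SE 1.08, adjusted p = 0.118), but passed without knockout replicate 1 (-4.78, adjusted p = 0.00994), which held most of its knockout counts, and counts of Ear1 and Ear2 may be shared. Siglecf likewise passed without that library (-8.72, adjusted p = 0.00649, against 0.599 with it). Itgax, the CD11c gene, and the scavenger receptor gene Cd36 did not pass (adjusted p = 0.203 and 0.731), and the groups overlapped for both.

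**Figure D3:**
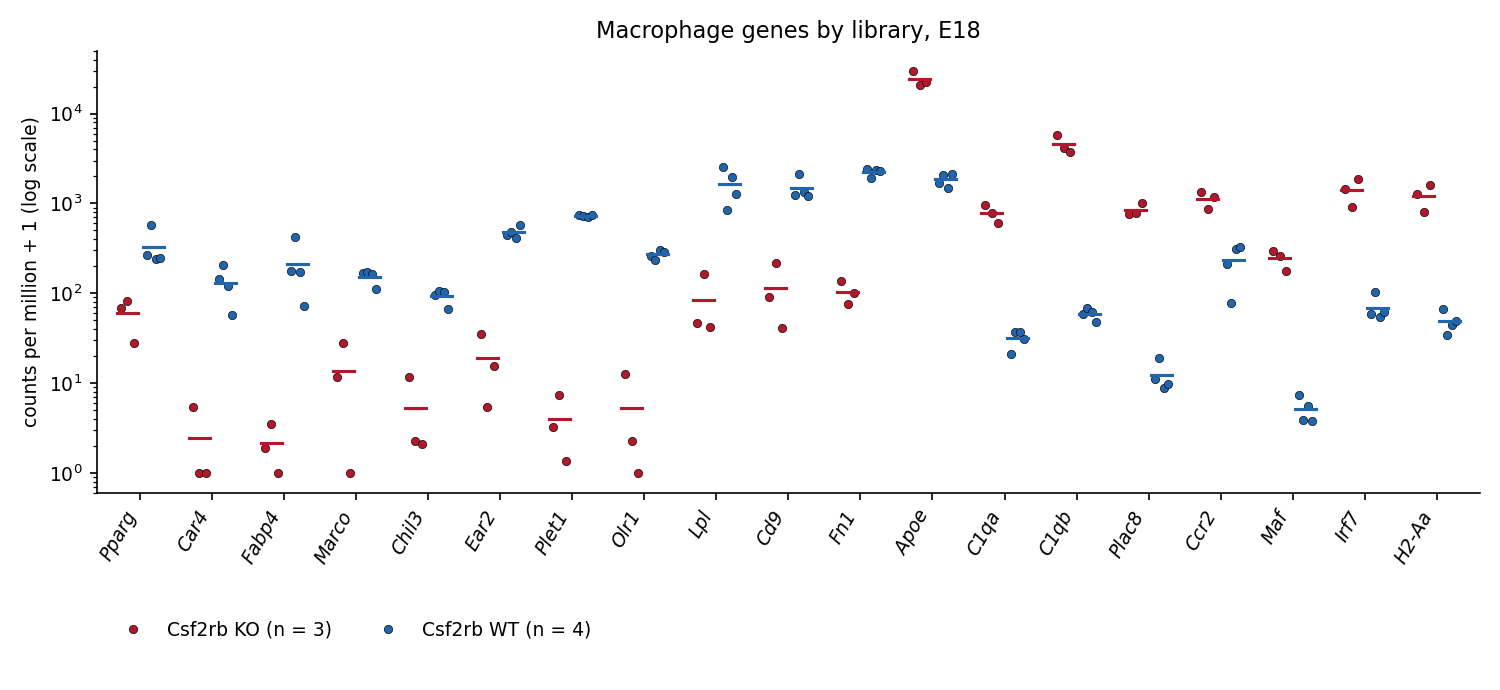
Levels of 19 macrophage genes (CPM + 1, log axis), with 1 point per library, a line at the group mean, and knockout libraries (red) left of wild-type libraries (blue). Plet1 was at most 6.30 CPM in the knockout libraries and at least 713 CPM in the wild-type libraries, and C1qb was at least 3715 CPM in knockout and at most 66.8 CPM in wild-type libraries.

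Genes of lipid uptake, storage and PPAR targets followed the same direction, with 14 lower and 1 higher of 29 tested and a median of -1.55. Lpl, the lipase that frees fatty acids from lipoproteins, had 46.0, 164 and 40.9 CPM in knockout libraries, against 2533, 837, 1962 and 1261 CPM in wild-type libraries (log2 fold change -4.28, SE 0.61, adjusted p = 0.00108). Angptl4, a PPAR-induced inhibitor of that lipase, had 1.33, 0 and 1.11 CPM in knockout and 192, 277, 215 and 236 CPM in wild-type libraries (-7.90, SE 0.48, adjusted p = 6.31e-06). The lipid droplet coat gene Plin2 had 190.3, 174 and 181 CPM in knockout libraries, against 527, 702, 604 and 629 CPM in wild-type libraries (-1.72, SE 0.18, adjusted p = 0.000199). Both enzymes of the last step of triglyceride synthesis fell, Dgat1 by 1.81 and Dgat2 by 3.01, together with the monoglyceride lipase gene Mgll (-4.54) and the lipid droplet gene Hilpda (-3.83). The 1 gene that rose (2 without knockout replicate 2) was Lipe, the hormone-sensitive lipase, at 54.4, 50.4 and 89.5 CPM in knockout and 19.1, 28.6, 15.1 and 25.9 CPM in wild-type libraries.

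Cholesterol efflux and LXR targets went both ways, with 3 higher and 5 lower of 19 tested, beside 11.0% of all genes higher and 11.4% lower. Apoe, the lipoprotein through which macrophages export cholesterol, had 29906, 20842 and 22235 CPM in knockout libraries, against 1681, 2082, 1493 and 2139 CPM in wild-type libraries (log2 fold change 3.76, SE 0.20, adjusted p = 5.19e-06). The exporter gene Abcg1 fell, with 67.7, 115 and 49.0 CPM in knockout and 625, 441, 379 and 424 CPM in wild-type libraries (-2.56, SE 0.33, adjusted p = 0.000576), as did the cholesterol ester hydrolase gene Nceh1 (-2.58) and Lpcat3 (-1.42), which remodels phospholipids. The partner exporter Abca1 was low in both groups, at 18.6, 1.89 and 13.7 CPM in knockout and 4.49, 1.78, 1.96 and 2.75 CPM in wild-type libraries. It did not pass (adjusted p = 0.121), and passed without knockout replicate 2 (adjusted p = 0.0161). The 3 higher genes of this list were 5 without knockout replicate 2, and the 5 lower ones 3 without wild-type replicate 4. Of 20 tested cholesterol synthesis genes 5 fell and 0 rose, among them Acat2 (at least 24.0-fold lower) and Hsd17b7 (at least 19.6-fold lower), both without a knockout count. The 5 were 2 without any 1 of the wild-type libraries and 3 without knockout replicate 3.

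Fatty acid oxidation genes fell in 12 of 28 tested cases and rose in 1, with a median of -1.03. The 1 rise was lost without knockout replicate 3 or wild-type replicate 1, 3 or 4. Cpt1a, which brings fatty acids into mitochondria, had 32.8, 30.9 and 37.1 CPM in knockout libraries, against 131, 91.7, 109.7 and 110.3 CPM in wild-type libraries (log2 fold change -1.67, SE 0.26, adjusted p = 0.00157). The peroxisomal importer gene Abcd2 fell by 2.34 and Ech1 by 2.62. Of 21 tested glycolysis genes 6 fell and 2 rose, beside 11.4% of all genes lower and 11.0% higher. Aldoa had 606, 597 and 921 CPM in knockout libraries, against 1899, 1957, 1647 and 2042 CPM in wild-type libraries (-1.37, SE 0.20, adjusted p = 0.00124), and Tpi1 (-1.77) and Gapdh (-1.10) also fell. The 2 that rose were 0 without knockout replicate 1 or wild-type replicate 1, 3 or 4, and 1 without wild-type replicate 2. Of 38 tested lysosome and surfactant breakdown genes 6 fell and 1 rose, 18.4% in either direction beside 22.5% of all genes, and the 6 were 3 without wild-type replicate 4. The 1 rise was 0 without wild-type replicate 1, 3 or 4, 3 without knockout replicate 3 and 4 without wild-type replicate 2. Ctsd, the lysosomal protease cathepsin D, had 1031, 1214 and 819.8 CPM in knockout and 2309.7, 3695, 2473 and 2952 CPM in wild-type libraries (-1.44, SE 0.22, adjusted p = 0.00151), and the sorting receptor gene Sort1 fell by 3.87 (SE 0.28, adjusted p = 2.33e-05).

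Cell cycle genes fell in 28 of 51 tested cases and rose in none, with a median of -1.91. Their summed level was 690.1 to 1276 CPM in knockout libraries, against 3253 to 3827 CPM in wild-type libraries. Mcm7, a subunit of the replication helicase, had 9.74, 4.41 and 22.3 CPM in knockout libraries, against 124, 183, 174 and 140.2 CPM in wild-type libraries (log2 fold change -3.59, SE 0.48, adjusted p = 0.000794). Cdk1, the kinase of mitosis, had 1.77, 17.6 and 10.0 CPM in knockout and 88.7, 96.0, 77.6 and 74.3 CPM in wild-type libraries (-3.09, SE 0.59, adjusted p = 0.00503). Cdc20, which activates the anaphase-promoting complex, fell by 4.85, and the mitotic receptor gene Hmmr had 0 counts in knockout libraries and was at least 43.4-fold lower. Mki67, which encodes the proliferation antigen Ki-67, had 32.3, 75.6 and 21.5 CPM in knockout libraries, against 131, 112, 175 and 107 CPM in wild-type libraries (-1.58, SE 0.43, adjusted p = 0.0253). Its call was lost without knockout replicate 1 or 3 or wild-type replicate 1 or 3, at adjusted p values of 0.0736, 0.0540, 0.0637 and 0.0780. The serine synthesis genes Psat1 (-4.68) and Phgdh (-3.51), which belong to a list of ATF4, NRF2 and antioxidant genes with 10 lower and 3 higher of 28 tested, fell as well. In that list the thioredoxin gene Txn1 had 58.9, 111 and 111 CPM in knockout and 552, 1139, 473 and 595 CPM in wild-type libraries, and the heme oxygenase gene Hmox1 rose by 1.40.

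Survival and apoptosis genes gave 4 higher and 3 lower of 24 tested, with a median of 0.02, beside 11.0% of all genes higher and 11.4% lower. Bcl2, the anti-apoptotic founder of its family, had 35.9, 58.0 and 84.7 CPM in knockout libraries, against 1.87, 2.05, 2.95 and 1.44 CPM in wild-type libraries (log2 fold change 4.88, SE 0.50, adjusted p = 0.000153). The pro-apoptotic Pmaip1, which encodes NOXA, rose too, with 105, 101 and 153 CPM in knockout and 6.36, 7.53, 7.20 and 8.37 CPM in wild-type libraries (4.05, SE 0.31, adjusted p = 2.53e-05). Birc3, an inhibitor of apoptosis, rose by 1.54, and Birc5, the mitotic protein survivin, fell by 4.22. Mcl1 and Bcl2l1 did not pass (log2 fold changes 0.20, SE 0.22, and -0.21, SE 0.33), and the groups overlapped for both.

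**Figure D4:**
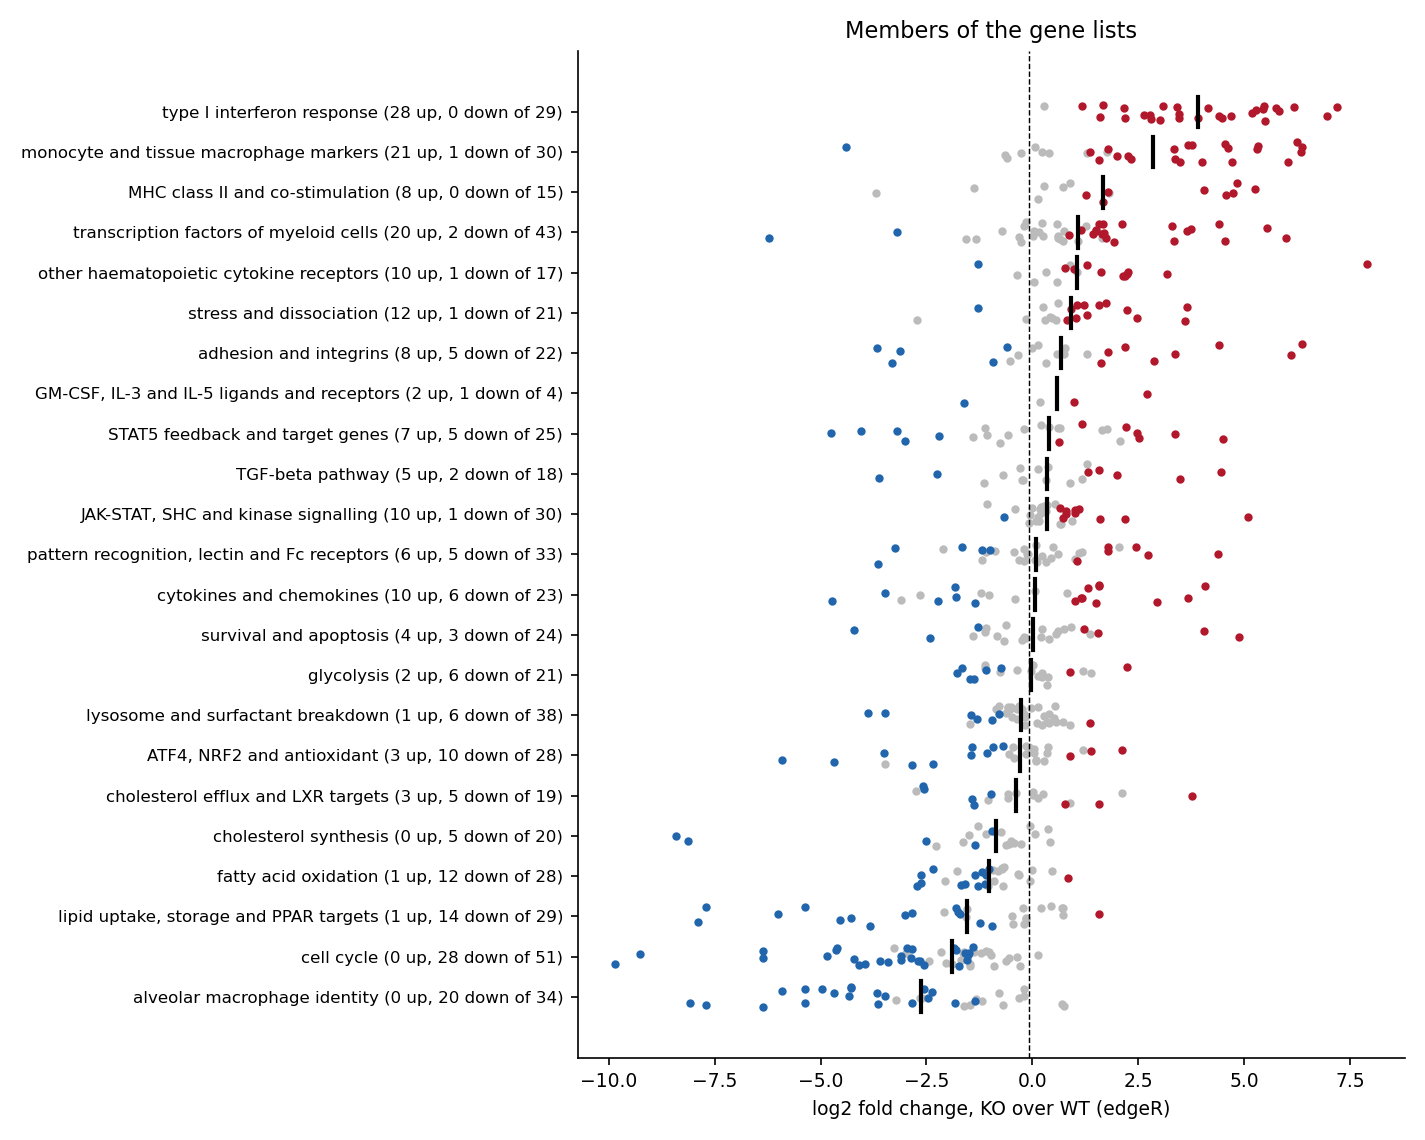
Log2 fold change of knockout over wild-type for every tested gene of each list, one list per line, with genes that rose in red, genes that fell in blue, genes that did not pass in grey, a black bar at the median of the list and a dashed line at the median of all 9422 genes (-0.08). Type I interferon response genes (median 3.90) and monocyte and tissue macrophage markers (2.84) lie to the right, and alveolar macrophage identity (-2.63) and cell cycle genes (-1.91) to the left.

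Markers of monocytes and of other tissue macrophages were higher in the knockout: 21 rose and 1 fell of 30 tested, with a median of 2.84. Their summed level was 35127 to 46737 CPM in knockout libraries, against 6237 to 7920 CPM in wild-type libraries. Apoe, described above among cholesterol efflux genes, also stands in this list and made up most of the knockout sum, and without it the sums were 13829 to 16831 CPM in knockout and 4644 to 5838 CPM in wild-type libraries. All 3 chains of the complement protein C1q rose. C1qb had 5774, 4171 and 3715 CPM in knockout libraries, against 57.3, 66.8, 61.2 and 46.4 CPM in wild-type libraries (log2 fold change 6.34, SE 0.24, edgeR adjusted p = 1.21e-06), C1qa rose by 4.70 and C1qc by 5.33. The monocyte gene Plac8 had 761, 775 and 1019 CPM in knockout and 10.1, 18.2, 7.86 and 8.76 CPM in wild-type libraries (6.26, SE 0.33, adjusted p = 5.19e-06). The chemokine receptor gene Ccr2, by which monocytes leave the marrow, had 1348, 856 and 1183 CPM in knockout and 211, 77.6, 307 and 328 CPM in wild-type libraries, with wild-type replicate 2 below its fellows. Cx3cr1 (3.49), Itgam, the CD11b gene (3.38), the Fc receptor gene Fcgr1 (1.78) and F13a1 (1.36) rose. Timd4 (5.29) and Lyve1 (6.02), markers of long-lived tissue macrophages, rose at a low level, and knockout replicate 1 held most of the Lyve1 signal (166, 9.45 and 8.54 CPM in knockout libraries, against 2.99, 0.548, 0.655 and 0.262 CPM in wild-type libraries). The 1 marker that fell was the fibronectin gene Fn1, with 135, 75.0 and 100.3 CPM in knockout and 2408, 1899, 2379.7 and 2297 CPM in wild-type libraries (-4.40, SE 0.26, adjusted p = 6.01e-06). Ly6c2, the classical monocyte antigen, did not pass at 5.31, 1.89 and 15.2 CPM in knockout and 4.87, 13.7, 8.51 and 10.6 CPM in wild-type libraries, and neither did Adgre1 (0.23, SE 0.26).

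Transcription factors of myeloid cells rose in 20 of 43 tested cases and fell in 2, with a median of 1.08. Maf, a transcription factor of macrophages, had 294, 259.7 and 177 CPM in knockout libraries, against 6.36, 2.88, 4.58 and 2.75 CPM in wild-type libraries (log2 fold change 5.99, SE 0.38, adjusted p = 8.84e-06). Spi1, which encodes the myeloid master regulator PU.1, had 1182, 764 and 1198 CPM in knockout and 289, 472, 341 and 419 CPM in wild-type libraries (1.50, SE 0.23, adjusted p = 0.0017). Klf2 (3.30), Klf4 (1.57) and Id3 (3.66) rose, as did Gata2 (3.74), a factor of progenitors, mast cells and basophils. Tfec, an MiT family factor of macrophages, fell by 6.21, to 1.33, 1.89 and 1.86 CPM in knockout libraries, against 143, 105, 142 and 131 CPM in wild-type libraries. Neither Cebpa nor Cebpb passed: Cebpa had 57.1, 33.4 and 29.7 CPM in knockout and 47.2, 72.4, 41.2 and 42.8 CPM in wild-type libraries (adjusted p = 0.609), and Cebpb 2287, 2208 and 2799.7 CPM in knockout and 2625, 2786, 3045 and 3531 CPM in wild-type libraries (-0.26, SE 0.17, adjusted p = 0.318).

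Genes of MHC class II chains and presentation rose in 5 of 9 tested cases and fell in none, with a median of 4.06. With the co-stimulation and adhesion genes of the same list, of which 3 of 6 rose, the count was 8 higher and 0 lower of 15 (2 lower without knockout replicate 2). H2-Aa, a class II alpha chain, had 1257, 793 and 1615 CPM in knockout libraries, against 65.9, 33.5, 43.9 and 47.6 CPM in wild-type libraries (log2 fold change 4.73, SE 0.32, adjusted p = 1.29e-05). H2-Ab1 (4.58), H2-Eb1 (4.84), the invariant chain gene Cd74 (4.06) and the class II transactivator gene Ciita (5.26) rose with it. Cd83 (1.26), a maturation marker, was among the co-stimulation genes that rose. The peptide-loading gene H2-DMa did not pass (0.14, SE 0.19, adjusted p = 0.673). Dendritic cell markers, which share class II expression, gave 5 higher and 0 lower of 8 tested (1 lower without knockout replicate 2), with a summed level of 1923 to 3339 CPM in knockout libraries, against 610.1 to 670.1 CPM in wild-type libraries. Bst2 (3.02), 1 of the 5 that rose, also stands in the list of interferon response genes below. Clec10a (-1.19), Cd24a (-1.49) and Irf8 (0.59) did not pass. Of the 16 markers, 6 had no count in the knockout and 3 none in the wild-type group. Among them Cd209a, a lectin of monocyte-derived dendritic cells, had 24.8, 4.41 and 4.46 CPM in the knockout libraries and 0 counts in the wild-type libraries, at least 77.3-fold higher. The part of dendritic cells in the class II values was not tested.

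Of 29 tested genes of the type I interferon response, 28 rose and none fell, with a median of 3.90. Their summed level was 8601 to 15523 CPM in knockout libraries, against 1045 to 1997 CPM in wild-type libraries. Irf7, the factor that amplifies the type I interferon response, had 1432, 914 and 1886 CPM in knockout libraries, against 57.3, 101, 53.4 and 60.4 CPM in wild-type libraries (log2 fold change 4.41, SE 0.32, adjusted p = 2.33e-05). Isg15, a ubiquitin-like modifier, had 865, 454 and 1288 CPM in knockout and 22.5, 28.9, 12.8 and 17.7 CPM in wild-type libraries (5.44, SE 0.41, adjusted p = 2.62e-05). Knockout replicate 2 was the lowest of the 3 knockout libraries for both, and still above all wild-type libraries. The viral entry inhibitor gene Ifitm3 (6.17), the tetherin gene Bst2 (3.02), the GTPase gene Mx1 (5.17) and Oasl1 (5.47) rose. Several of these genes have near-identical copies that can share reads.

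Cytokine and chemokine genes gave 10 higher and 6 lower of 23 tested, with a median of 0.06. Il1b had 3362, 3566 and 3600.2 CPM in knockout libraries, against 1144, 1915, 1632 and 1662 CPM in wild-type libraries (log2 fold change 1.18, SE 0.19, adjusted p = 0.00193), and Tnfsf9, the 4-1BB ligand, rose by 4.07, Tgfb1 by 1.58 and Ccl4 by 1.32. The neutrophil chemoattractant gene Cxcl2 went the other way, with 926, 508 and 331 CPM in knockout and 3076, 3476, 2699 and 2021 CPM in wild-type libraries (-2.22, SE 0.35, adjusted p = 0.00188). Cxcl1 (-3.47), Il18 (-1.80) and the osteopontin gene Spp1 (-4.72) fell too. The call of Spp1 was lost under limma-voom with quality weights per library or per group (adjusted p = 0.205 and 0.0839).

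Stress and dissociation genes, which respond to tissue digestion, rose in 12 of 21 tested cases and fell in 1 (median 0.91), or in 2 without knockout replicate 1 or 2. Fos had 6563, 3308 and 4935 CPM in knockout and 2362, 2327, 2569 and 2501 CPM in wild-type libraries, and Jun (2.23), Junb (1.58) and the heat shock gene Hspa1a (3.61) rose, while Ier3 fell by 1.29. Markers of other lung cells were measured beside them. Erythroid markers rose in 5 of 6 tested cases and fell in none, with a summed level of 7319 to 10396 CPM in knockout libraries, against 2113 to 3805 CPM in wild-type libraries. Hba-a1 had 1809, 2378 and 2989 CPM in knockout and 469, 581, 428 and 495 CPM in wild-type libraries. Epithelial markers gave 1 higher and 2 lower of 7 tested (summed level 840.6 to 1092 CPM in knockout and 676.7 to 936 CPM in wild-type libraries). The higher 1 was Napsa (1.15), which averaged 552 CPM over the 7 libraries and made up a large part of these sums. The fold changes of the other 6 were negative (median of all 7 -1.32), and 1 of the lower ones was Hopx (-2.49). The surfactant gene Sftpc, at 29.2, 13.9 and 6.31 CPM in knockout and 73.0, 49.7, 9.17 and 44.5 CPM in wild-type libraries, did not pass. Neutrophil markers gave 2 higher and 2 lower of 6 tested (233.7 to 336 CPM in sum in knockout and 144 to 386 CPM in wild-type libraries), and S100a8 had 0.443, 0 and 1.11 CPM in knockout and 122, 292, 47.5 and 39.9 CPM in wild-type libraries, a call lost under both forms of limma-voom (adjusted p = 0.210 and 0.213). The 2 lower neutrophil markers were 1 without any 1 of the wild-type libraries. Stroma and endothelium (1 higher of 1 tested, 41.6 to 77.5 CPM in knockout and 14.1 to 30.3 CPM in wild-type libraries), lymphocytes (0 of 2, 50.5 to 146 CPM in knockout and 50.5 to 68.5 CPM in wild-type libraries) and eosinophils, mast cells and basophils (1 higher of 4, 125 to 152 CPM in knockout and 7.20 to 46.4 CPM in wild-type libraries) were near the floor in most members. In the knockout group 8 of 17, 12 of 18 and 8 of 16 markers of these 3 lists in the table had no count. Single libraries moved these small counts: epithelium had 1 lower without wild-type replicate 1, stroma and endothelium 0 higher without wild-type replicate 1, 3 or 4, lymphocytes 1 lower without knockout replicate 2 and 1 higher without knockout replicate 3, and eosinophils, mast cells and basophils 2 higher without knockout replicate 2 or wild-type replicate 4. The part of these cells in the changes above was not tested.

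Premature alveolar macrophages of Cebpb knockout embryos, compared with their own wild-type controls, show which of these changes also occurred with the loss of another regulator of the same cells. The transcription factor C/EBPβ is known to be needed for alveolar macrophage differentiation. Identity genes fell in both: the count was 20 lower and 0 higher of 34 tested in Csf2rb knockout, and 23 lower and 4 higher of 34 in Cebpb knockout, where 9.55% of all genes fell and 12.0% rose (959 falls, 637 without Cebpb wild-type replicate 2). Their summed level was 1770.0 to 2242 CPM in Cebpb knockout libraries, against 8796 to 9212 CPM in Cebpb wild-type libraries. Tested directly as a difference of both knockout effects, 3 of 36 identity genes were higher and 3 lower, beside 4.18% and 7.18% of all 10182 genes (11.4% in either direction, 1157 genes, 749 without Cebpb wild-type replicate 1 and 1871 without Csf2rb knockout replicate 2). All 14 E18 libraries shared the spread in this test, though it was wider within Csf2rb knockout (78.2%) than within Csf2rb wild type (30.3%). Sharing it in this way moved the Csf2rb comparison itself from 2118 to 3475 genes. The p values of the difference may thus be too small. Of the genes that fell in Csf2rb knockout and were tested in both, 396 of 1048 (37.8%) fell in Cebpb knockout, which is 42.2% of the 938 falls there. Another 29 (2.77%) rose in Cebpb knockout. Of the genes that rose, 427 of 1006 (42.4%) rose in Cebpb knockout, 43.5% of the 982 rises there, and 10 (0.994%) fell. These comparisons share no libraries.

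Interferon response, monocyte and cell cycle genes differed between the knockouts. The interferon list gave 28 higher of 29 in Csf2rb knockout and 9 higher of 30 in Cebpb knockout (medians 3.90 and 0.62), and 25 of 31 genes had a higher effect in Csf2rb knockout by the test of the difference. Irf7 averaged 158 ± 43.7 CPM in Cebpb knockout and 129 ± 29.5 CPM in Cebpb wild-type libraries (mean ± SD, n = 4 and 3, as for the levels of Cebpb groups that follow), and its difference of effects was 4.08 (SE 0.41, adjusted p = 1.35e-05). For monocyte and tissue macrophage genes the counts were 21 higher and 1 lower of 30 in Csf2rb knockout and 14 higher and 4 lower of 32 in Cebpb knockout, with 14 of 32 differing upward and 1 downward. Plac8, at 216 ± 24.9 CPM in Cebpb knockout and 217 ± 174 CPM in Cebpb wild-type libraries, had a difference of 6.22 (SE 0.55), Apoe 3.34 (SE 0.35) and C1qb 4.46 (SE 0.30). In Csf2rb wild-type libraries Plac8 was far lower than in Cebpb wild-type libraries, so unlike starting levels enter its difference. Of 51 cell cycle genes, 28 fell in Csf2rb knockout and 13 in Cebpb knockout, and 20 had a lower effect in Csf2rb knockout. In the list of MHC class II and co-stimulation genes 8 of 15 rose in Csf2rb knockout and 15 of 16 in Cebpb knockout, and 6 of 17 differed downward.

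STAT5 feedback and target genes also differed between the knockouts, with 9 of 27 downward and 3 upward. Cish, which fell in Csf2rb knockout, averaged 639.6 ± 291 CPM in Cebpb knockout and 157 ± 31.1 CPM in Cebpb wild-type libraries, a rise of 2.01 (adjusted p = 0.000524), and the difference of effects was -4.26 (SE 0.45, adjusted p = 2.04e-05). Socs2 averaged 96.4 ± 19.9 CPM in Cebpb knockout and 81.8 ± 20.4 CPM in Cebpb wild-type libraries and did not pass there (adjusted p = 0.537), and its difference was -5.02 (SE 0.72). Bhlhe40 rose in Cebpb knockout by 2.16 and differed by -4.58 (SE 0.39, adjusted p = 2.14e-06), Id1 by -2.23 (SE 0.34). Csf2rb did not pass in Cebpb knockout, at 575 ± 108 CPM in Cebpb knockout and 509.9 ± 17.98 CPM in Cebpb wild-type libraries (adjusted p = 0.639), and the difference was -1.84 (SE 0.28). Pparg fell further in Cebpb knockout, where it averaged 7.90 ± 1.88 CPM against 179 ± 11.9 CPM in Cebpb wild-type libraries, and the difference of effects was 1.99 (SE 0.50, adjusted p = 0.0153).

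The 6 largest downward differences of effects were of genes with 0 counts in Csf2rb knockout libraries. The lectin gene Mgl2 had 0 counts in Csf2rb knockout libraries and 0, 2.46, 1.31 and 4.06 CPM in Csf2rb wild-type libraries, and averaged 206 ± 121 CPM in Cebpb knockout and 2.14 ± 1.77 CPM in Cebpb wild-type libraries (difference -12.68, SE 1.66, adjusted p = 0.000246). The chemokine gene Ccl17 (difference -12.34), the actin regulator gene Enah (-11.92), Ppfia4 (-11.26), the heparan sulfate enzyme gene Hs3st3b1 (-11.19) and Smim5 (-10.53) followed, and with 0 counts the fitted sizes depend on the prior count and are no bounds. In the other direction stood S1pr5, a lysophospholipid receptor of patrolling monocytes, with 22.6, 58.6 and 36.4 CPM in Csf2rb knockout libraries, 1.87, 1.64, 0.655 and 1.31 CPM in Csf2rb wild-type libraries and 0 counts in Cebpb knockout (difference 8.28, adjusted p = 0.00506, lost without Cebpb wild-type replicate 1 at 0.0857). Ifitm6 (6.87), Ms4a4c (6.61), Ifit2 (6.38) and Prtn3 (6.37) were also among the 6 largest upward differences.

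**Figure D5:**
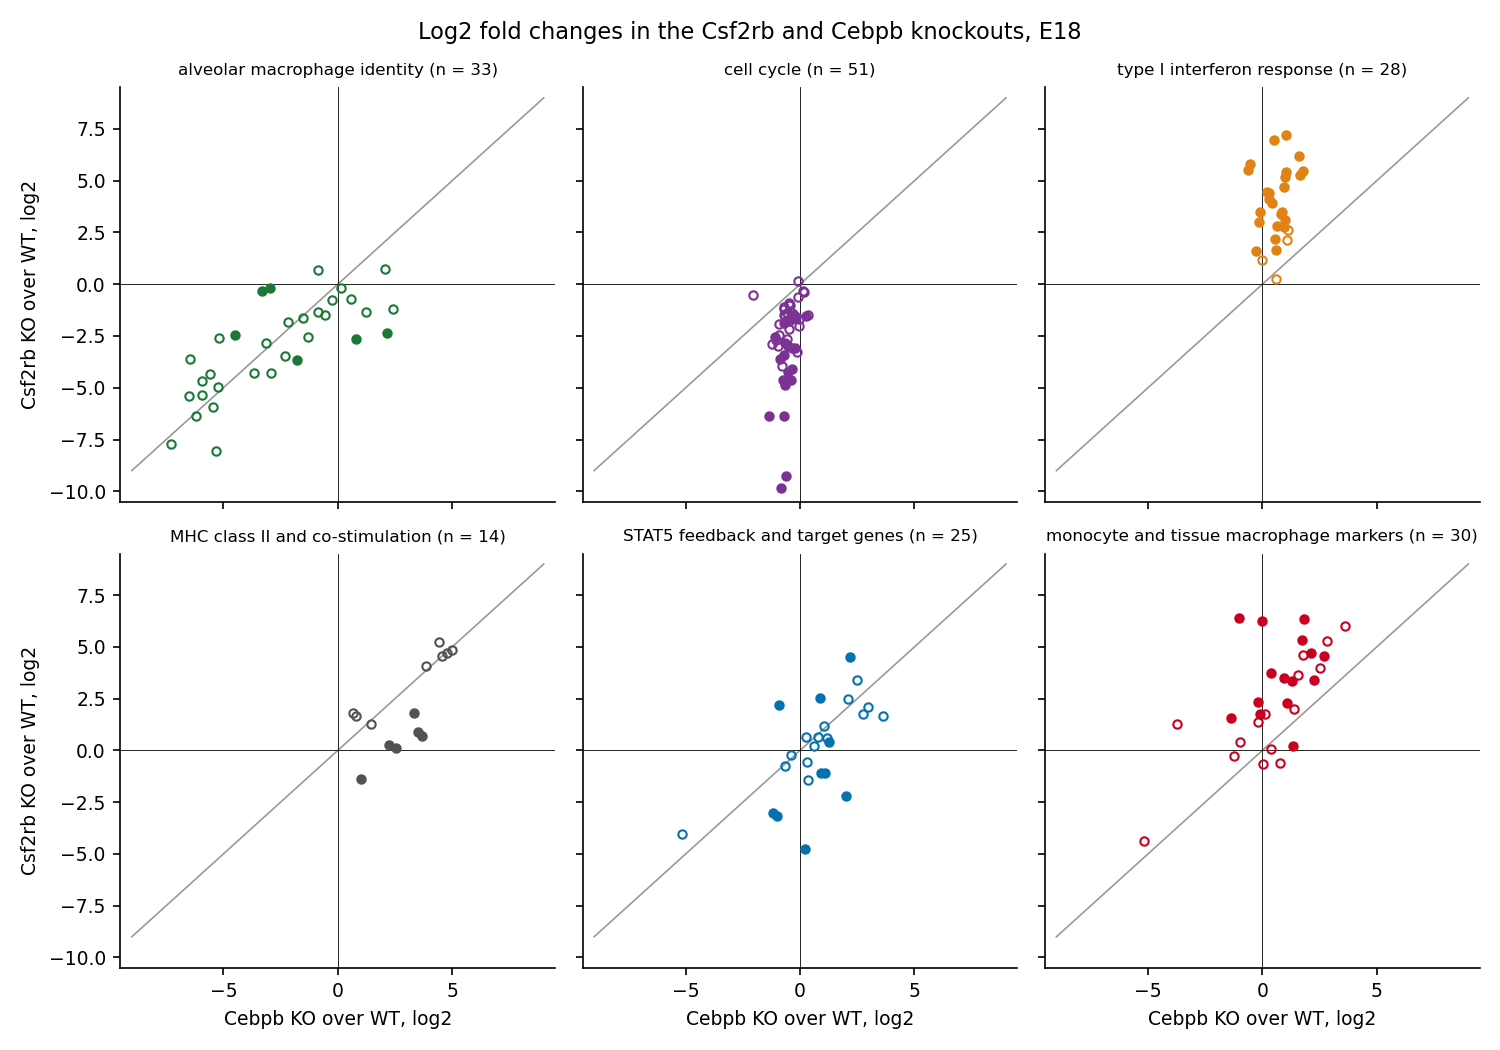
Log2 fold change in Csf2rb knockout against log2 fold change in Cebpb knockout for genes of 6 lists tested in both, with filled points where the test of the difference passed and a grey line where both changes would be equal. Filled points number 24 of 28 in the interferon panel and 20 of 51 in the cell cycle panel, against 6 of 33 among identity genes.

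Adult wild-type alveolar macrophages show where these genes stand in the mature cell. Between adult and E18 Cebpb wild-type cells, 27 of 38 tested identity genes were higher in adults and 1 lower, beside 20.7% and 21.4% of all genes, and cell cycle genes were lower in 42 of 49 cases. Monocyte and tissue macrophage markers were lower in 22 of 29 cases and higher in 4, and interferon response genes lower in 14 of 27 and higher in 1. Of the genes that fell in Csf2rb knockout and were tested in both, 227 of 994 (22.8%) were higher in adults and 352 (35.4%) lower. Of those that rose, 168 of 884 (19.0%) were higher in adults and 315 (35.6%) lower. Plin2 averaged 1002 ± 234 CPM, Plet1 942 ± 95.03 CPM and Chil3 3121 ± 443 CPM in adults, C1qb 23.1 ± 8.39 CPM, and Plac8 had no count there. Adult cells came from lavage and E18 cells from digested lung, so age and preparation cannot be told apart in these levels.

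The flanks of Csf2rb were read because a targeted allele can carry linked sequence of another strain. Within 5 Mb on either side, 127 genes were tested and 28 passed (22.0%), 15 higher and 13 lower, Csf2rb among the latter, against 22.5% of all genes. The nearest called neighbours were Ncf4, a subunit of the phagocyte NADPH oxidase (log2 fold change 1.07, SE 0.18, adjusted p = 0.00293), and the GTPase gene Rac2 (0.90, SE 0.17, adjusted p = 0.00500). In Cebpb knockout Ncf4 did not pass (adjusted p = 0.290), and Rac2 rose by the same 0.90. Txn2 fell by 0.91 and Maff by 3.50, and the interferon-inducible Ly6a, Ly6i and Ly6e, which lie together about 3.3 to 3.4 Mb away, rose. The background of the allele beyond the label was not tested.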

How the data were processed

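RNA was measured in 7 libraries of E18 premature alveolar macrophages, 3 Csf2rb knockout and 4 wild-type, and 11 libraries served for comparison. The table deposited by the authors holds whole counts per Ensembl gene for 64 libraries. The submitters' processing notes name STAR 2.6.1a, featureCounts 1.6.3, DESeq2 1.26 and GRCm38. Not given in the sources used here are the collapse of molecule barcodes, the use of strand and the handling of reads shared by near-identical copies. Counts of H2, Hba, Hbb, Oas, Ifi, Ifit, Ear, Csf2rb, Hspa1, Ccl and S100 genes are therefore uncertain. Replicate numbers come from the sample titles.

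The test was that of edgeR 4.0.16 in R 4.3.3: TMM scaling, filterByExpr with a minimum count of 10, estimateDisp and robust quasi-likelihood F tests. Each knockout comparison was fitted on its own libraries, and the difference of both knockout effects on the 14 E18 libraries. A gene passed at an adjusted p under 0.05 (Benjamini-Hochberg over all tested genes). Fold changes are log2, knockout over wild-type, with SE as the log2 fold change over the root of F. CPM printed per library use TMM factors over all 18 libraries. Tables and figures used Python 3.11.15, numpy 2.4.6, pandas 2.3.3, scipy 1.17.1 and matplotlib 3.10.9.

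Gene lists, 31 in all, and the genes named were chosen with earlier results of these data known. Csf2rb came first, then the 15 largest rises and falls among genes that passed that reached a mean of 20 CPM in either group and whose libraries did not overlap (predicted, ribosomal, mitochondrial, MHC, hemoglobin and sex-linked genes left out), then genes of the lists, of which the text names a part. The 6 largest differences of effects in each direction were named. Some genes that these rules name are not reported here. The remaining lists, of survival, adhesion and TGF-beta, pattern recognition and sorting surface genes, are reported with their counts. Counts of every list in Csf2rb knockout stand beside 11.0% of all tested genes that rose and 11.4% that fell. Alternatives were DESeq2 1.42.0, its size factors within edgeR, limma 3.58.1 voom with quality weights, other filters and scalings, the replicate number as a block, all 14 E18 libraries in 1 fit, and each replicate left out. Promoter windows are from RefSeq.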

Additional observations from a re-analysis of the deposited data

Results flagged for a closer look

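Among the single-gene values of the 4 Csf2rb wild-type libraries and, for some genes, of the 4 Cebpb knockout libraries, 205 sets were examined, and in 18 of them 1 library lay far from the others. Its gap to the nearest library, as a share of the range of the group, was above Dixon's 95% critical value for 4 values. Chance gives about 5% of such sets, and all 18 were in the wild-type group. Wild-type replicate 1 was the highest library, with the gap share in brackets, for Fabp1 (0.963) and Lyve1 (0.856). Wild-type replicate 2 was the highest library, with the gap share in brackets, for Il2rg (0.976), Spink2 (0.981), Pparg (0.910), Cd9 (0.874), Perp (0.908), Cdc20 (0.857), Irf7 (0.852), Tgfb1 (0.847) and Ccl4 (0.831). Wild-type replicate 2 was the lowest library, with the gap share in brackets, for Ifnar1 (0.926), Cidec (0.853) and Hmmr (0.879). Wild-type replicate 3 was the highest library, with the gap share in brackets, for Psat1 (0.886) and Hspa1a (0.896). Wild-type replicate 4 was the highest library, with the gap share in brackets, for Ednrb (1.0). Wild-type replicate 4 was the lowest library, with the gap share in brackets, for Marco (0.876). In Ednrb a single count in wild-type replicate 4 set the whole range. Replicate 2 of the wild type also held the lowest share of mitochondrial counts (0.0295%). None of the 164 genes that passed changed its direction without any 1 library.

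By the test of the difference in edgeR, the effect of the knockout differed between Csf2rb and Cebpb for 1157 genes. The 21 listed here are a part of them. Some were picked by this same test, and other genes named in the text passed it as well. The log2 effect was lower in Csf2rb knockout, with the difference in brackets, for Mgl2 (-12.68), Ccl17 (-12.34), Enah (-11.92), Ppfia4 (-11.26), Hs3st3b1 (-11.19), Smim5 (-10.53), Csf2rb (-1.84), Cish (-4.26), Socs2 (-5.02), Bhlhe40 (-4.58) and Id1 (-2.23). It was higher in Csf2rb knockout for S1pr5 (8.28), Ifitm6 (6.87), Ms4a4c (6.61), Ifit2 (6.38), Prtn3 (6.37), Pparg (1.99), Apoe (3.34), Plac8 (6.22), Irf7 (4.08) and C1qb (4.46). The genes from Mgl2 to Smim5 had no count in Csf2rb knockout libraries, and S1pr5 none in Cebpb knockout, so their fitted sizes depend on the prior count. Mgl2 was also low in Csf2rb wild-type libraries, so its difference rests on its level in Cebpb knockout. Plac8 was far lower in Csf2rb than in Cebpb wild-type libraries, so unlike starting levels enter its difference. Strain background and the number of genes detected per library differed between both experiments as well, and their part was not tested.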

How the results depend on the processing

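The count of 2118 genes in the Csf2rb comparison was 946 with a replicate block, 1199 with a filter of at least 100 CPM (2329 genes tested), chosen after seeing the data, and 3475 when all 14 E18 libraries shared the spread. It ran from 1325 to 2809 with single libraries left out. DESeq2 gave 3163, its size factors within edgeR 2108, no filter 2205, a filter of 5 CPM 2087, and voom with quality weights 1934. Upper-quartile scaling (2154) and voom with 1 quality weight per group (1703) were chosen after seeing the data. The difference of both knockout effects, 1157 genes, was 721 with a replicate block, 749 without Cebpb wild-type replicate 1 and 1871 without Csf2rb knockout replicate 2, the lowest and highest of all libraries left out. The total counts of the Cebpb and adult comparisons stayed within 1.5 times of their values, while the 959 falls in Cebpb knockout were 637 without Cebpb wild-type replicate 2. Same-numbered libraries of both groups did not deviate together (correlations -0.0016 to 0.011 across genes), and the numbers are not taken as pairs. Since the knockout libraries spread widely, these correlations cannot show that same-numbered libraries shared no preparation. Calls lost under the block are therefore named below.

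Of the 164 named genes that passed, 144 passed in every alternative that tested them, 20 were lost in at least 1 of the 17, and 0 changed direction. The replicate block lost 12 of them: Csf2ra, Stat3, Lipe, Acat2, Hsd17b7, Mki67, Birc3, Timd4, Cd44, Cd209a, Enah and Hs3st3b1. Voom with quality weights lost 4 (Fabp4, Car4, Spp1 and S100a8). Voom with 1 weight per group lost 8, which are the same 4 with Spink2 (adjusted p = 0.0578), Gk (0.0540), Cd44 (0.0715) and Hopx (0.124). Genes that did not pass changed direction in some: Csf2rb2 was -0.24 under voom with quality weights, -0.56 without knockout replicate 3 and -0.03 without wild-type replicate 2 (-0.56 to 0.55 over single libraries left out). Stat5a was -0.23 without knockout replicate 2 (range -0.23 to 0.55), and Stat5b 0.16 and 0.03 without knockout replicate 3 and wild-type replicate 2 (-0.19 to 0.16). Cd36 was -0.70 under voom with quality weights, -0.21 with 1 weight per group and -0.79 without knockout replicate 3 (-0.79 to 1.30), and Ly6c2 was 0.15 without knockout replicate 2 (-1.31 to 0.15). The cause was not tested. Of 21 genes named for differing effects 20 passed throughout. Genes of 5 to 20 CPM were often at 0 counts in single knockout libraries at depths where wild-type libraries held them, so a low gene that did not pass is not shown to be equal between the groups.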

Other observations

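Adhesion and integrin genes went both ways in Csf2rb knockout macrophages, with 8 higher and 5 lower of 22 tested and a median log2 fold change of 0.67, beside -0.08 over all genes. Itga4, the alpha chain of VLA-4, had 390.4, 339.7 and 502 CPM in knockout libraries, against 73.7, 26.7, 65.8 and 65.5 CPM in wild-type libraries (log2 fold change 2.87, SE 0.34, edgeR adjusted p = 0.000384). The integrin beta chain gene Itgb7 rose by 4.41 and Itga9 by 6.11, while the beta chain gene Itgb1 did not pass (0.58, edgeR adjusted p = 0.0887). The hyaluronan receptor gene Cd44 fell by 0.92 (SE 0.22, adjusted p = 0.0132). The 5 lower genes were 3 without wild-type replicate 1. Genes of the TGF-beta pathway, which also directs alveolar macrophage development, gave 5 higher and 2 lower of 18 tested. Over all genes 11.0% were higher and 11.4% lower. Eng, an accessory receptor for TGF-beta, had 70.4, 28.4 and 48.7 CPM in knockout and 0.749, 1.37, 3.93 and 3.01 CPM in wild-type libraries (4.46, SE 0.64, adjusted p = 0.00111).

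Pattern recognition, lectin and Fc receptor genes gave 6 higher and 5 lower of 33 tested, with a median of 0.08. Over all genes 11.0% were higher and 11.4% lower. Tlr1, a partner of TLR2, had 62.0, 49.2 and 13.4 CPM in knockout and 2.62, 1.37, 1.96 and 2.22 CPM in wild-type libraries (4.38, SE 0.65, adjusted p = 0.00127), and Tlr2 fell by 1.00 (SE 0.23, adjusted p = 0.0113), with 442, 747 and 419 CPM in knockout and 1064, 1186, 1041 and 1121 CPM in wild-type libraries. The Fc receptor gene Fcgr4 rose by 2.45 and the lectin gene Clec4e by 1.80. The 5 lower genes were 3 without wild-type replicate 2, 3 or 4. Of 9 tested genes of surface proteins used to sort lung macrophages 4 rose, Ptprc (1.70), Itgam (3.38), Fcgr1 (1.78) and H2-Ab1 (4.58), and 0 fell, or 1 without knockout replicate 1. The surface gate of the sort is not given in the labels, so the part of the gate in these levels was not tested.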
